A study of Homo sapiens with 17 samples.

Results

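The genes described here are 10 genes of the epithelial-mesenchymal transition, CDH1, CDH2, VIM, FN1, SNAI2, ZEB1, ZEB2, TWIST1, SPARC and LOX. They were chosen by symbol, as 10 of the 34496 rows of a table of RNA sequencing counts, and followed through all 10 RNA libraries, each made from an established line of head and neck cancer. Cal27, a tongue squamous cell carcinoma line, was compared with a derivative labelled as an NSD1 knockout. NSD1 is a methyltransferase of histone H3 at lysine 36. A part of the knockout-labelled cells received EPZ-6438, also called tazemetostat, which blocks EZH2, the methyltransferase of lysine 27 on that histone. The treated set held 3 groups of 2 libraries: Cal27 given the solvent DMSO, the labelled knockout given DMSO, and the labelled knockout given EPZ-6438. The untreated set held 1 library each of Cal27, the labelled knockout, SKN3 and BICR78. There was no EPZ-6438 library of Cal27 itself, so the inhibitor was compared only within the labelled knockout. The sources used here do not give the number of knockout clones, the dose or the treatment time. No label says that replicates came from separate cultures, so the p-values below reflect the spread among the deposited libraries alone, which may be technical.

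In an epithelial-mesenchymal transition, epithelial cells loosen their adherens junctions and take on a migratory, matrix-producing state. E-cadherin (CDH1) holds neighbouring epithelial cells together, and N-cadherin (CDH2) and the intermediate filament vimentin (VIM) are the usual mesenchymal markers. The transcription factors SNAI2 (Slug), ZEB1, ZEB2 and TWIST1 can repress CDH1 by binding E-boxes, short DNA elements of the form CANNTG. Fibronectin (FN1), the collagen-binding glycoprotein SPARC and the collagen cross-linking enzyme lysyl oxidase (LOX) belong to the extracellular matrix. In head and neck carcinoma many tumours show a partial transition, in which epithelial and mesenchymal genes are transcribed together.

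Promoter entries of RefSeq, build GRCh38.p14, were used for 7 of the 10 genes. For CDH1, SNAI2 and TWIST1 none was used. The 250 bases before the annotated gene start are shown for 4 of them, picked after the RNA results below were seen. FN1 and LOX rose with EPZ-6438, CDH2 fell, and ZEB1 stayed near the counting floor. VIM and SPARC, which also fell, are not shown, and no link between these letters and RNA levels was tested. Capitals mark every CANNTG and, in FN1, the palindrome TGACGTCA, the form of the cAMP response element. The intervals are chr2:215436069-215436318 on the minus strand for FN1, chr5:122078260-122078509 on the minus strand for LOX, chr18:28177131-28177380 on the minus strand for CDH2 and chr10:31318167-31318416 on the plus strand for ZEB1. Sequences run 5′ to 3′ on the strand of the gene.
FN1: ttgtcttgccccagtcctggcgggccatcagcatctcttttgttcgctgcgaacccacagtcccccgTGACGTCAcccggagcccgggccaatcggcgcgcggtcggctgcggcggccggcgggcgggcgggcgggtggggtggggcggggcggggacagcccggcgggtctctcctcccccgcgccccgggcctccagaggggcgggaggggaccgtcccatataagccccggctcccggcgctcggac
LOX: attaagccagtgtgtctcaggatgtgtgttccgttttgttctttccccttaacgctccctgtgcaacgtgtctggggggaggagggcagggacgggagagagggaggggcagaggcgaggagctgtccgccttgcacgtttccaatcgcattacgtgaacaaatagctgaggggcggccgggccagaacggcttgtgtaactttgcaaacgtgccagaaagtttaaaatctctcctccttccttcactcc
CDH2: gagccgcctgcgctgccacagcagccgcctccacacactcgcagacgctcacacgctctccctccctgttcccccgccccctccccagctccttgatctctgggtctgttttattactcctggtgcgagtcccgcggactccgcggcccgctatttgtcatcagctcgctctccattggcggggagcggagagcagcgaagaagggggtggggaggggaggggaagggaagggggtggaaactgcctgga
ZEB1: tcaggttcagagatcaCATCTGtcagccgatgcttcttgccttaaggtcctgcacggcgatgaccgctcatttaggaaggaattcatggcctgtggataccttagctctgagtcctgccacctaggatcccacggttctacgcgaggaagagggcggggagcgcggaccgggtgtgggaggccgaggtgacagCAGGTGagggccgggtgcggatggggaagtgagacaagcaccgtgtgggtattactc

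In the window of 300 bases that also holds the first 50 bases of the gene, ZEB1 had 2 CANNTG matches, of which 1 was CAGGTG or its reverse complement, the form favoured by SNAI and ZEB proteins. ZEB2 and SPARC had 1 CANNTG each, and FN1, LOX, CDH2 and VIM had none at their annotated start. Both strands were searched, and every CAGGTG match is also a CANNTG match. Over all 35116 windows of this length, 68.7% held a CANNTG and 20.6% a CAGGTG. The FN1 window held 1 TGACGTCA, which began 183 bases before the gene start, and 1.85% of all windows held one. LOX and ZEB1 have further annotated starts whose windows did hold CAGGTG. These matches are descriptions of letters, not measured binding sites.

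Total counts ran from 11.75e6 to 15.51e6 in the 6 libraries of the treated set and from 17.59e6 to 21.74e6 in the 4 untreated ones. Levels are given in counts per 1e6 counts (CPM), scaled between libraries by the TMM method, and are compared between libraries within a gene, never between genes, because transcript lengths were not used here. The targeted gene goes against its label: NSD1 was at 113 and 114 CPM in Cal27 with DMSO, 165 and 164 CPM in the DMSO-treated labelled knockout, and 162 and 151 CPM with EPZ-6438. It was at 149, 203 and 78.1 CPM in untreated Cal27, labelled knockout and SKN3, and at 0.468 CPM (9 counts) in BICR78. Counts over the whole gene do not show whether the protein was lost, and the libraries are called the labelled knockout throughout. All 10 squamous epithelial markers were detected in every library, which is a weak check of the epithelial label at this depth. Their summed level moved with the groups. It was 8650 to 8751 CPM in Cal27 with DMSO, 3780 to 3919 CPM in the DMSO-treated labelled knockout and 2427 to 2457 CPM with EPZ-6438. In the untreated set it was 25671 CPM in Cal27, 3964 CPM in the labelled knockout, 6984 CPM in SKN3 and 15056 CPM in BICR78. Single markers moved further: PKP1 was at 1.45 CPM (32 counts) in the untreated labelled knockout against 667 CPM in untreated Cal27. KRT14 was at 45.6 against 6783 CPM in the same 2 libraries, while EPCAM alone of these markers was higher, at 256 against 184 CPM. The 9 fibroblast markers summed to 19.1 to 20.7, 7.52 to 10.04 and 21.5 to 25.6 CPM in the same 3 treated-set groups, with THY1 at no more than 1 count in any of these 6 libraries. The 7 immune markers summed to 52.3 to 54.2, 98.3 to 101 and 93.4 to 104 CPM, nearly all of it CD68, and the 5 endothelial markers to 17.3 to 17.7, 20.9 to 23.1 and 26.6 to 29.0 CPM, mostly CDH5. The part of these marker shifts in the results below was not tested. In such bulk samples, fewer cells of a type and less RNA per cell cannot be told apart.

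The labelled knockout did not show a uniform shift of the transition genes. With DMSO, N-cadherin, fibronectin and SPARC RNA rose over Cal27, while vimentin and TWIST1 fell narrowly. E-cadherin and SNAI2 were nearly level. Of the 9 genes tested, 3 were called higher and 2 lower at an adjusted p below 0.05 (edgeR quasi-likelihood F test with Benjamini-Hochberg adjustment over all 13241 tested genes). The background was wide: 35.9% of all tested genes were called, 16.4% higher and 19.5% lower, and nothing particular to these genes is read from 5 of 9. Scaling by library size alone turned the balance of calls over all genes from 2169 higher and 2580 lower to 2978 higher and 2088 lower. The median log2 change of the 9 genes was 0.15, against -0.0061 over all tested genes. ZEB1, at 4 to 11 counts per library, did not pass the low-count filter and was not tested.

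EPZ-6438 moved most of the genes, and again in both directions. Fibronectin, TWIST1 and LOX rose in the labelled knockout, and E-cadherin, N-cadherin, vimentin, SNAI2 and SPARC fell. Both cadherins thus fell together. The counts were 3 higher and 5 lower of 9 tested, with ZEB2 not called. The background was 49.6% of all tested genes called, 25.6% higher and 23.9% lower. The median log2 change of the 9 genes was -0.48, against 0.0029 over all tested genes. Both comparisons contain the DMSO libraries of the labelled knockout, so their values are given side by side and are not independent.

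**Figure D1:**
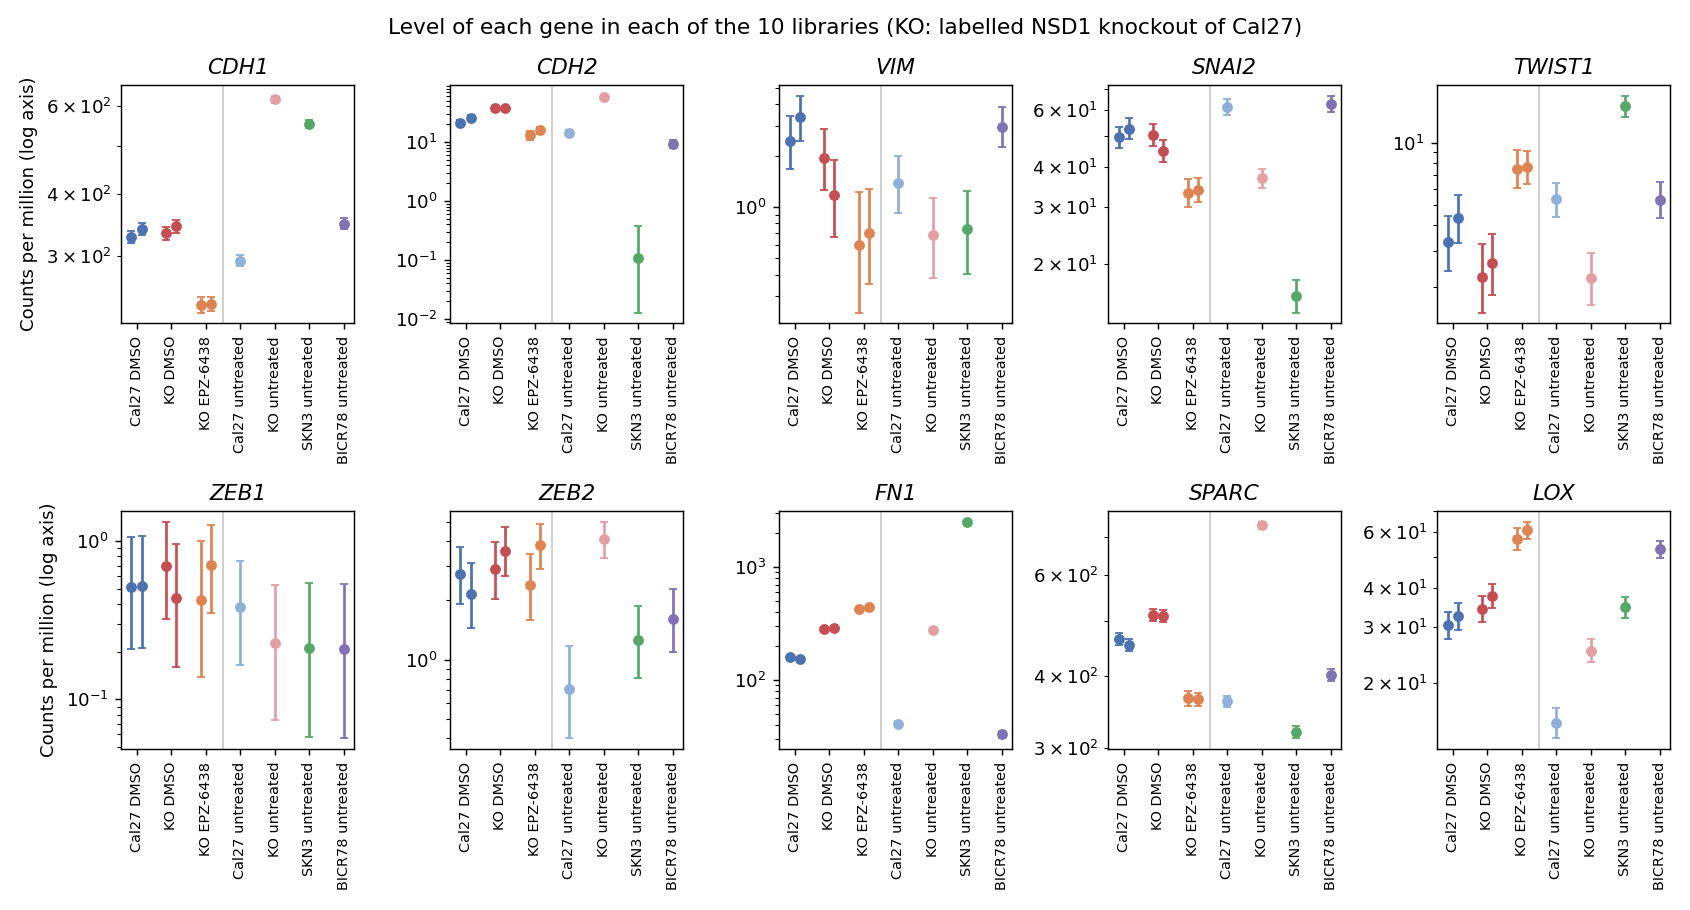
Level of each gene in each of the 10 libraries, in CPM on a log axis, with exact 95% Poisson intervals that cover counting error only; each point is 1 library, and the grey line parts the treated set (left) from the untreated set (right). FN1 is highest in SKN3 (2500 CPM), CDH2 almost absent there (0.105 CPM), and VIM and ZEB1 are low in all 10 libraries.

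CDH1 (chr16:68737292-68835537) encodes E-cadherin. Its level was 327 and 340 CPM in the Cal27 DMSO libraries, 333 and 344 CPM in the DMSO-treated labelled knockout, and 239 and 240 CPM with EPZ-6438. The first pair of groups overlapped, and both inhibitor libraries lay below all 4 others. The labelled knockout differed from Cal27 by a log2 fold change of 0.01 (SE 0.03, 95% interval -0.05 to 0.08, edgeR adjusted p = 0.78). That interval holds no change beyond 0.08, but it covers the treated set alone. Over 16 alternative analyses the log2 change ran from -0.013 to 0.37, without a call. In the single untreated pair the labelled knockout was at 2.11 times Cal27. EPZ-6438 lowered CDH1 1.41-fold (log2 -0.50, SE 0.03, edgeR adjusted p = 1.2e-09). E-cadherin RNA had at least 2803 counts in each of the 10 libraries.

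CDH2 (chr18:27932879-28177130), the mesenchymal N-cadherin, rose in the labelled knockout and fell under EPZ-6438. It was at 21.2 and 25.6 CPM in Cal27 with DMSO, 36.8 and 37.8 CPM in the DMSO-treated labelled knockout, and 12.9 and 15.6 CPM with EPZ-6438, with no overlap between any of the 3 groups. The rise in the labelled knockout was 1.59-fold (log2 0.67, SE 0.10, edgeR adjusted p = 4.2e-05), and with the untreated pair added to the fit the log2 change was 1.13 (edgeR adjusted p = 0.024). The fall with EPZ-6438 was 2.60-fold (log2 -1.38, SE 0.11, edgeR adjusted p = 1.1e-08), and brought CDH2 below Cal27.

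The balance of the 2 cadherins within a library needs no scaling for depth. For every 100 CDH1 counts there were 6.48 and 7.53 CDH2 counts in Cal27 with DMSO, 11.0 and 11.0 in the DMSO-treated labelled knockout, and 5.39 and 6.49 with EPZ-6438. The DMSO-treated labelled knockout stood above the other 2 groups, which lay next to each other. In the untreated set the ratio was 4.80 (95% exact binomial interval 4.26 to 5.40) in Cal27 and 9.23 (8.70 to 9.78) in the labelled knockout, again the higher of the pair. It was 2.61 (2.24 to 3.04) in BICR78 and 0.0191 (0.00231 to 0.0690) in SKN3, which had 2 CDH2 counts beside 10480 of CDH1. This ratio was chosen after the levels had been seen and was not tested.

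VIM (chr10:17228241-17237593) encodes vimentin, the classical mesenchymal filament protein. It was scarcely transcribed in these lines, at 7 to 57 counts per library and no more than 3.36 CPM. The Cal27 DMSO libraries had 2.42 and 3.36 CPM, the DMSO-treated labelled knockout 1.95 and 1.17 CPM, and with EPZ-6438 0.597 and 0.708 CPM. The 3 groups did not overlap and descended in that order. The fall in the labelled knockout was a log2 change of -0.90 (SE 0.34, 95% interval -1.63 to -0.18), with an edgeR adjusted p of 0.04998 that only just met the threshold. This call was lost in 11 of 16 alternative analyses, with adjusted p up to 0.46. Among single libraries, it was lost without replicate 1 or replicate 2 of Cal27 with DMSO (log2 -1.12 and -0.65), replicate 2 of the DMSO-treated labelled knockout (-0.57), or either inhibitor replicate (-0.90 and -0.90). The fall with EPZ-6438 was -1.22 on the log2 scale (SE 0.44, edgeR adjusted p = 0.028). That call was lost with DESeq2 (adjusted p = 0.11) and without replicate 1 of the DMSO-treated labelled knockout (log2 -0.82, edgeR adjusted p = 0.25) or either inhibitor replicate (edgeR adjusted p = 0.12 and 0.088). The difference between the inhibitor group and Cal27 was larger (log2 -2.12, SE 0.40, edgeR adjusted p = 0.00025), and was called in all 15 alternatives.

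SNAI2 (chr8:48917598-48921429) encodes Slug, a zinc finger repressor that basal keratinocytes also transcribe. It was at 49.4 and 52.6 CPM in Cal27 with DMSO, 50.2 and 44.9 CPM in the DMSO-treated labelled knockout, and 33.2 and 33.9 CPM with EPZ-6438. The labelled knockout overlapped Cal27 (log2 change -0.11, SE 0.07, 95% interval -0.26 to 0.03, edgeR adjusted p = 0.22). With EPZ-6438 both libraries lay below the other 4 of the treated set, a fall of 1.41-fold (log2 -0.50, SE 0.07, edgeR adjusted p = 2.4e-05).

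TWIST1 (chr7:19113047-19117636), a helix-loop-helix factor, went the opposite way to SNAI2 under the inhibitor. It had 3.30 and 4.32 CPM in Cal27 with DMSO, 2.26 and 2.63 CPM in the DMSO-treated labelled knockout, and 7.51 and 7.60 CPM with EPZ-6438. The inhibitor libraries, with 88 and 118 counts, lay above the other 4. The rise with EPZ-6438 was 3.08-fold (log2 1.62, SE 0.22, edgeR adjusted p = 1.1e-05). The fall in the DMSO-treated labelled knockout (log2 -0.65, SE 0.24, edgeR adjusted p = 0.045) rested on 29 to 58 counts and was lost in 10 of 16 alternatives. Among single libraries, it was lost without replicate 2 of Cal27 with DMSO (log2 -0.44, edgeR adjusted p = 0.29), replicate 1 or 2 of the DMSO-treated labelled knockout (-0.54 and -0.76) or either inhibitor replicate (-0.64 and -0.65).

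The 2 ZEB genes gave no call. ZEB2 (chr2:144384081-144520119) had 2.72 and 2.16 CPM in Cal27 with DMSO, 2.88 and 3.58 CPM in the DMSO-treated labelled knockout, and 2.39 and 3.80 CPM with EPZ-6438. Its replicates spread widely at 28 to 59 counts, and neither the log2 difference of 0.40 in the labelled knockout (95% interval -0.23 to 1.02, edgeR adjusted p = 0.32) nor that of -0.04 with EPZ-6438 (-0.64 to 0.56, edgeR adjusted p = 0.92) passed. These intervals are wide, and a change within them was not detectable at this depth. ZEB1 (chr10:31318417-31529804) was at 0.514 and 0.522 CPM, 0.701 and 0.438 CPM, and 0.427 and 0.708 CPM in the same 3 groups, which overlapped. No change of ZEB1 was detectable at this depth.

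FN1 (chr2:215360865-215436068), the fibronectin gene whose promoter is shown above, was the one gene of the 9 called higher in both comparisons. It was at 159 and 155 CPM in Cal27 with DMSO, 286 and 287 CPM in the DMSO-treated labelled knockout, and 428 and 444 CPM with EPZ-6438. Replicates lay close together, and the 3 groups were far apart. The labelled knockout exceeded Cal27 1.81-fold (log2 0.86, SE 0.03, edgeR adjusted p = 3.6e-12), and EPZ-6438 raised FN1 a further 1.53-fold (log2 0.61, SE 0.03, edgeR adjusted p = 4.1e-11). With the untreated pair added to the fit the first difference was larger, at a log2 of 1.47 (edgeR adjusted p = 0.026). The 3′ part of the FN1 locus shares 7728 bases with ATIC, a purine synthesis gene. ATIC had 184 and 197 CPM in Cal27 with DMSO, 184 and 185 CPM in the DMSO-treated labelled knockout, and 134 and 140 CPM with EPZ-6438, so its level was lowest where FN1 was highest.

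SPARC (chr5:151661096-151686915) was at 464 and 453 CPM in Cal27 with DMSO, 512 and 510 CPM in the DMSO-treated labelled knockout, and 367 and 365 CPM with EPZ-6438. The groups did not overlap. Its rise in the labelled knockout was small, 1.11-fold (log2 0.15, SE 0.03, edgeR adjusted p = 0.00042), and lost its call with the untreated pair added (log2 0.44, edgeR adjusted p = 0.094). The fall with EPZ-6438 was 1.40-fold (log2 -0.48, SE 0.03, edgeR adjusted p = 2.6e-10). SPARC and FN1, both matrix glycoproteins, were thus called in opposite directions under the inhibitor.

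LOX (chr5:122063195-122078259) had 30.5 and 32.5 CPM in Cal27 with DMSO, 34.3 and 37.6 CPM in the DMSO-treated labelled knockout, and 57.1 and 60.8 CPM with EPZ-6438. The inhibitor libraries were well above the other 4. EPZ-6438 raised LOX 1.64-fold (log2 0.72, SE 0.07, edgeR adjusted p = 1.8e-07). The difference between the labelled knockout and Cal27 did not pass (log2 0.18, SE 0.08, 95% interval 0.02 to 0.34, edgeR adjusted p = 0.069), although it passed when libraries were scaled by total count alone (edgeR adjusted p = 0.021). The LOX locus lies wholly inside the RefSeq span of SRFBP1, and the sources used here do not give the strand setting of the counting, so reads of the 2 genes may not have been told apart. SRFBP1 had 22.8 and 23.6 CPM, 21.5 and 24.99 CPM, and 26.0 and 20.1 CPM in the 3 groups, which overlapped. Non-coding genes or pseudogenes also overlap CDH1, CDH2, VIM, FN1, ZEB1, ZEB2, TWIST1 and SPARC in RefSeq. Only the pseudogenes FTLP14, inside CDH1, and SPTLC1P1, inside ZEB1, were found among the counted genes. FTLP14 had 2 to 17 counts per library and SPTLC1P1 had 0 in all. The others were not analysed here.

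**Figure D2:**
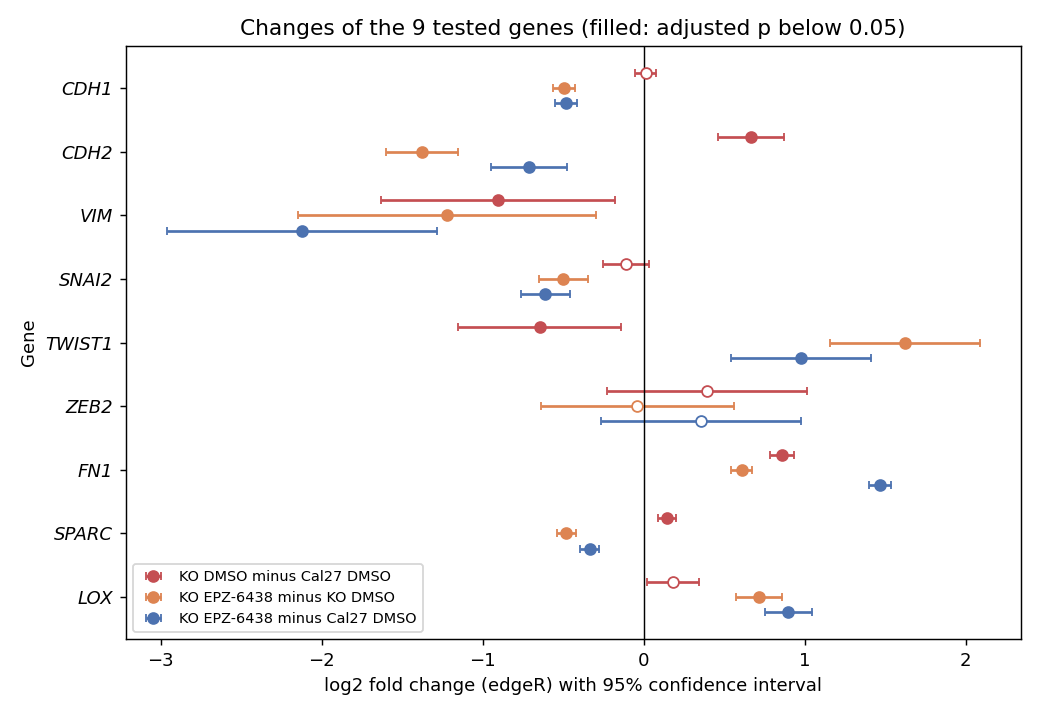
Log2 fold changes (edgeR) of the 9 tested genes with 95% confidence intervals in the 3 comparisons of the treated set; filled points had an adjusted p below 0.05. FN1 is right of 0 in all 3, CDH2 crosses from 0.67 to -1.38, and the intervals of VIM, ZEB2 and TWIST1 are the widest.

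Set directly against Cal27 with DMSO, the inhibitor-treated labelled knockout showed 3 genes higher and 5 lower of 9, against a background of 52.0% called, 26.1% higher and 25.9% lower. The genes were those named for the inhibitor: FN1 was higher by a log2 of 1.47, TWIST1 by 0.98 and LOX by 0.90, while CDH1 (-0.48), CDH2 (-0.71), VIM (-2.12), SNAI2 (-0.61) and SPARC (-0.34) were lower, with edgeR adjusted p from 6.9e-16 for FN1 to 0.00068 for TWIST1. CDH2 and SPARC were each above Cal27 without the inhibitor and below it with the inhibitor. ZEB2 was not called (log2 0.36, edgeR adjusted p = 0.33). The median log2 change was -0.34, against 0.0039 over all tested genes. This comparison shares its libraries with both others.

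The wider mesenchymal programme was followed in a list of 23 mesenchymal and matrix genes, of which 20 were tested. In the DMSO-treated labelled knockout 11 were called lower and 4 higher, with a median log2 change of -0.66. With EPZ-6438 13 were higher and 5 lower, with a median of 0.92. Over all tested genes 19.5% were lower and 16.4% higher in the first comparison, and 25.6% higher and 23.9% lower in the second. In the labelled knockout more of the list was called lower than higher, while FN1 and CDH2 were called higher. The fibroblast marker sum given above took the same course as the list's median and shares COL1A1, COL1A2, COL3A1 and THY1 with it, and its part in these counts was not tested. From Cal27 to the labelled knockout, both with DMSO, COL1A1 went from 13.9 and 12.7 CPM to 6.93 and 4.31 CPM. With EPZ-6438 it was at 10.4 and 9.98 CPM. COL1A2 went from 3.38 and 1.71 CPM to 1.40 and 1.24 CPM, and then to 6.74 and 7.66 CPM. These 2 genes took the course of the list's median. The genes of this list named next have its lowest adjusted p. Each is given in the direction that fewer of its genes took, so in that comparison it is an exception within the list. NT5E, the ecto-nucleotidase CD73, rose in the labelled knockout (log2 1.58, 53.6 to 161 CPM), as did the membrane protease MMP14 (0.73, 181 to 302 CPM). The largest fall with EPZ-6438 among the list's named genes was that of CAV1, the coat protein of caveolae, which went from 2142 to 810 CPM (log2 -1.40), and the secreted glycoprotein DKK3 fell from 104 to 52.4 CPM (-0.99). Of 18 genes of the partial transition described in head and neck cancer, all tested, 10 rose and 3 fell in the labelled knockout (median 0.10), and 7 rose and 7 fell with EPZ-6438 (median -0.02), against the same background shares. The activin subunit INHBA followed CDH2 in direction, at 151, 236 and 156 CPM in the 3 groups (log2 0.63 and -0.59). The tenascin gene TNC followed FN1, with log2 changes of 0.11 and 0.40, and the urokinase gene PLAU changed by 0.09 and 0.41.

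Among 8 tested transcription factors of the transition other than the 10 genes, 1 rose and 2 fell in the labelled knockout, and 4 rose and 3 fell with EPZ-6438. The share called over all tested genes was 35.9% and 49.6%, so the first count is near the background. The chromatin protein HMGA2 rose from 136 to 300 CPM (log2 1.13) and fell to 211 CPM with the inhibitor (-0.51). FOXQ1, a forkhead factor, fell from 8.62 to 6.63 CPM (-0.39) and rose to 20.1 CPM (1.601), the same directions as TWIST1. SNAI3, at a mean of 0.845 CPM or less in these 3 groups, rose with EPZ-6438 (2.42), and TCF3, which encodes E-proteins that pair with TWIST1, fell (-0.20). TWIST2 was at 0 CPM in all 3 groups.

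On the epithelial side, 16 regulators of epithelial splicing and identity were tested, of which 7 rose and 3 fell in the labelled knockout and 6 rose and 3 fell with EPZ-6438. ELF3, an epithelial ETS factor, fell from 63.0 to 24.8 CPM (log2 -1.35) and rose to 89.6 CPM with the inhibitor (1.86). Its relative EHF rose in both comparisons (0.40 and 0.22), as did the protease inhibitor SPINT1 (0.25 and 0.87) and its target ST14, the protease matriptase (0.29 and 0.51). The 3 that fell with EPZ-6438, as CDH1 did, were the splicing factor ESRP2 (-0.54), EPCAM (-0.14) and CDH3 (-0.10), named after their values were seen. The summed squamous markers were also lower with the inhibitor, as given above, but the markers did not move together. KRT5 made up the largest part of that difference, from 1903 and 1984 CPM with DMSO to 872 and 887 CPM with EPZ-6438. KRT14, TP63 and SFN were also lower. KRT6A went the other way, from 163 and 176 CPM to 187 and 197 CPM, as did KRT17 and PKP1. Over all tested genes 35.9% were called in the labelled knockout and 49.6% with EPZ-6438, the latter near the share among the 16 regulators. Of 11 adherens junction partners 5 rose and 5 fell in the labelled knockout, and 6 rose and 2 fell with EPZ-6438, against the same background shares. JUP, the plakoglobin that binds cadherin tails, fell from 558 to 383 CPM (-0.55) and rose to 445 CPM (0.22). The adhesion receptors NECTIN1 (-0.73 and 0.58) and NECTIN4 (-0.70 and 1.48) took the same directions, and NECTIN2 rose in both (0.21 and 0.48).

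Relatives of the cadherins and matrix genes were mixed, and some took the same directions as CDH2, LOX or SPARC. Of 5 other cadherins tested, 1 rose and 3 fell in each comparison, against 16.4% higher and 19.5% lower, and then 25.6% and 23.9%, over all tested genes. CDH11, a mesenchymal cadherin, went from 2.33 to 0.229 and then 2.61 CPM (log2 -3.32 and 3.49), the reverse of CDH2. Both of its changes rest on the level of 0.229 CPM, near the counting floor, so their size is uncertain. CDH13 fell in both comparisons (-1.30 and -0.59), as did the P-cadherin gene CDH3 (-0.18 and -0.10). CDH24 fell with EPZ-6438 (-0.54). Among the 4 other lysyl oxidases, LOXL4 went from 10.02 to 0.669 and then 6.56 CPM (-3.88 and 3.28), its lowest level also near that floor. LOXL2 rose in the labelled knockout and fell with the inhibitor (0.25 and -0.15), LOXL1 fell in the labelled knockout (-1.80), and LOXL3 was not called in either. In the SPARC family 3 genes were tested: FSTL1 fell from 38.0 to 24.2 CPM (-0.66) and rose to 66.5 CPM (1.46), SPOCK1 fell in the labelled knockout (-1.16), and SMOC2 was not called. The 2 comparisons share libraries, so opposite signs of a gene in them are in part built in.

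Fibronectin is bound by integrins and induced by TGF-beta signalling. Of 5 tested fibronectin-binding integrin subunits 2 rose and 1 fell in the labelled knockout, and 3 rose and 1 fell with EPZ-6438, where 35.9% and 49.6% of all tested genes were called. ITGA5, which pairs with ITGB1 into the main fibronectin receptor, rose with the inhibitor from 79.3 to 119 CPM (log2 0.59), and ITGB1 rose in both comparisons (0.10 and 0.14). ITGAV rose in the labelled knockout and fell under the inhibitor (0.22 and -0.57), and ITGA4 fell from 16.8 to 2.80 CPM in the labelled knockout (-2.58) and rose with the inhibitor (0.99). Of 14 tested genes of TGF-beta ligands, receptors and SMADs, 5 rose and 3 fell in the labelled knockout and 5 rose and 1 fell with EPZ-6438, a share below the 49.6% of all tested genes in the second comparison. LTBP2, which encodes a latent TGF-beta binding protein, rose in both comparisons (1.83 and 1.01), as did the signal transducer SMAD3 (0.31 and 0.33). The receptor TGFBR1 fell in the labelled knockout and rose under the inhibitor (-0.50 and 0.95), and LTBP3 rose with EPZ-6438 (0.62).

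**Figure D3:**
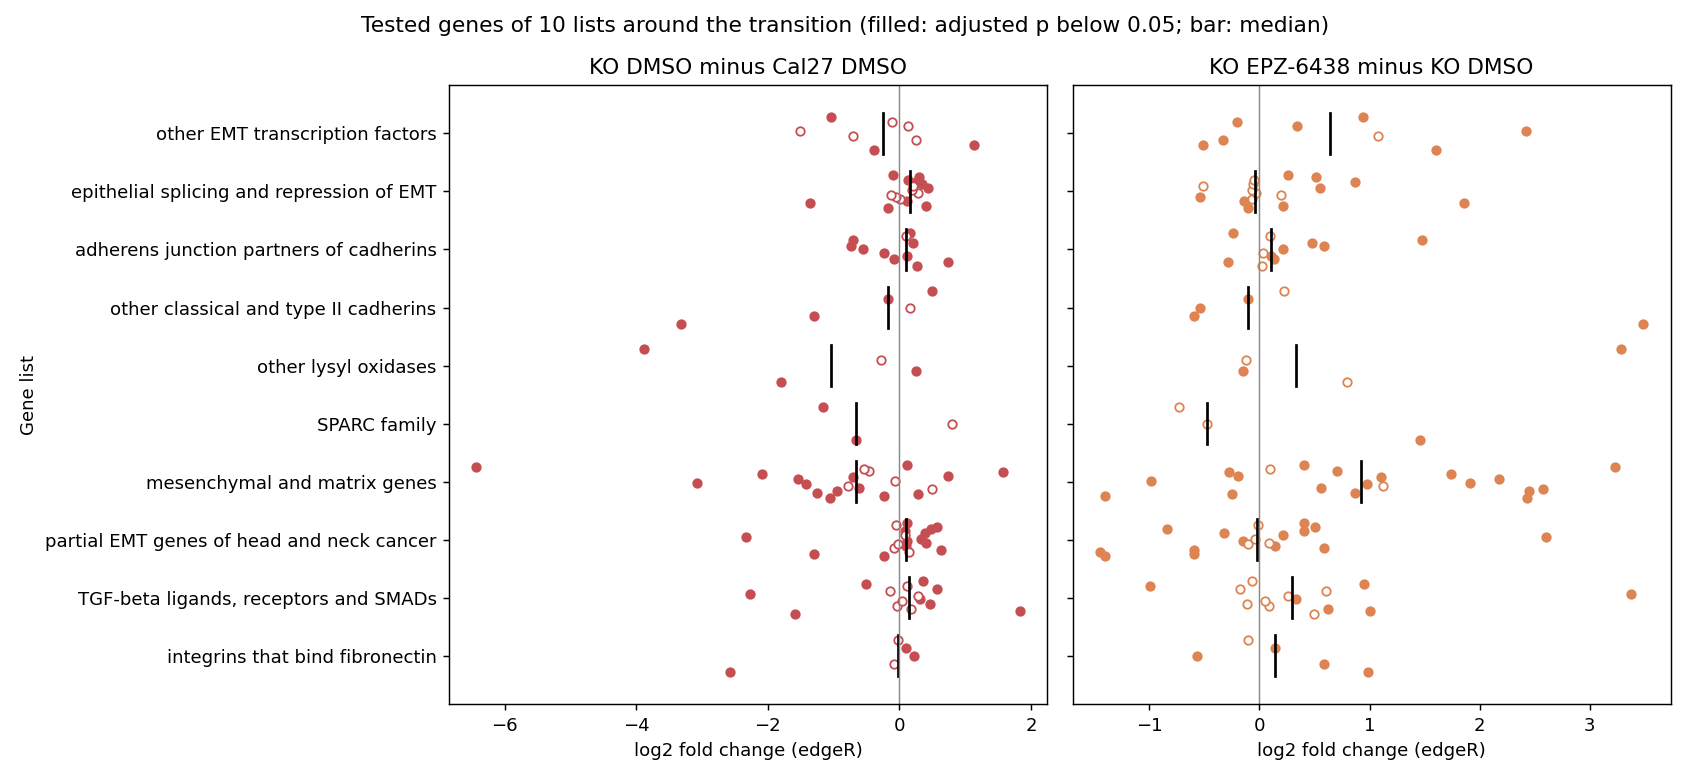
Log2 fold changes (edgeR) of the tested genes of 10 lists in the labelled knockout against Cal27 with DMSO (left) and with EPZ-6438 against DMSO in the labelled knockout (right); each point is a gene, filled where its adjusted p was below 0.05, and bars are list medians. The mesenchymal and matrix list has its median at -0.66 on the left and 0.92 on the right; points are moved up and down only to keep them apart, and the 2 panels have different axes.

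The labelled knockout could be compared with Cal27 a further time in the untreated set, with 1 library each and no replicate check. These values are log2 CPM differences with a prior count of 2. CDH2 differed by 2.01 untreated and 0.68 with DMSO, FN1 by 2.76 and 0.87, SPARC by 1.02 and 0.15, and TWIST1 by -1.22 and -0.61. CDH1 differed by 1.08 untreated but 0.02 with DMSO, and ZEB2 by 2.33 but 0.39. LOX gave 0.75 and 0.19, SNAI2 -0.73 and -0.10, and VIM -0.90 and -0.86. ZEB1, at 5 and 8 counts in the untreated pair, gave -0.52 and 0.09 and was the gene of the 10 whose sign differed. The untreated differences were larger in size for all 10.

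The 2 sets also differed within each genotype. Untreated Cal27 was below Cal27 with DMSO by a log2 of 1.93 for FN1 (41.0 against 159 and 155 CPM), a gap passed downwards by about 0.952% of all tested genes. For ZEB2 the difference, untreated minus DMSO, was -1.61, for LOX -1.06 and for VIM -0.99, all below the 5th percentile of all tested genes, which was -0.81. In the labelled knockout the same difference was -0.04 for FN1, -0.50 for LOX and 0.34 for ZEB2. CDH1 differed by 0.87 in the labelled knockout (percentile 91.9 of all tested genes) and by -0.18 in Cal27, CDH2 by 0.61 and -0.72, and SPARC by 0.52 and -0.34. In the labelled knockout VIM (-1.02) alone lay below the 5th percentile of -0.97. The summed squamous markers also stood higher in untreated Cal27, at 25671 CPM. Solvent, depth and handling of the 2 sets cannot be told apart.

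**Figure D4:**
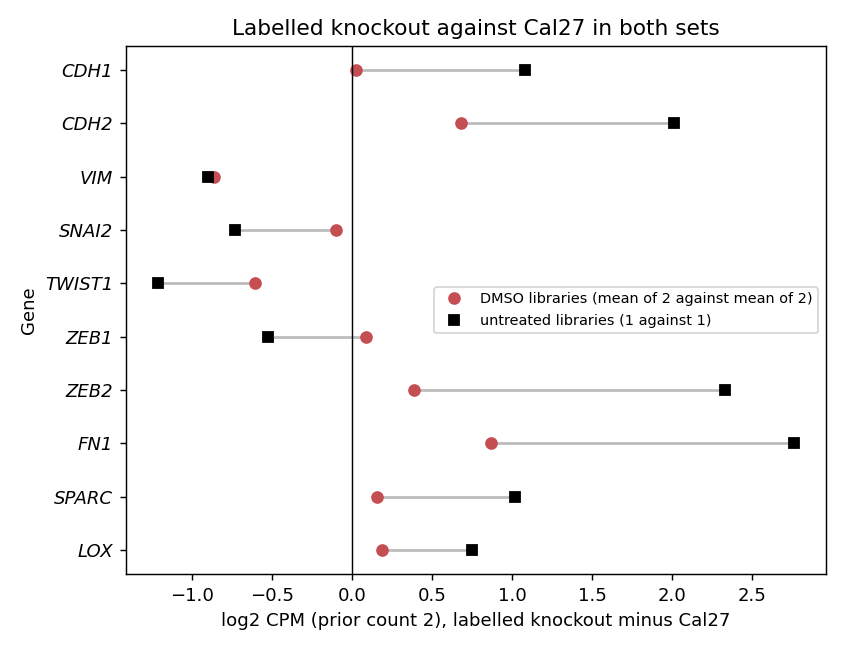
Labelled knockout minus Cal27 in log2 CPM (prior count 2) for each gene, in the DMSO libraries (circles, mean of 2 minus mean of 2) and in the untreated libraries (squares, 1 minus 1). FN1 is at 0.87 and 2.76 and CDH1 at 0.02 and 1.08, while VIM is nearly the same in both.

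Across the untreated lines, the transition genes gave no single order. A gene was counted as different from untreated Cal27 past 2-fold on log2 CPM with a prior count of 2, which draws low counts together, with 1 library per line and so no test. In the labelled knockout 5 of the 10 genes were past 2-fold higher and 1 lower, against 14.4% of all tested genes in either direction; VIM, at 15 and 29 counts, lies past 2-fold lower by its plain ratio and not on that scale. In SKN3 3 were higher and 2 lower, against 36.7%, and in BICR78 3 were higher and none lower, against 23.2%. These shares cover the genes kept by the low-count filter on the treated set. Genes transcribed in SKN3 or BICR78 but not in the Cal27 cells are therefore missing from them, as is ZEB1. The ratios below carry exact 95% intervals for counting error only.

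SKN3 combined high fibronectin with E-cadherin and next to no N-cadherin. Its FN1 level was 2500 CPM, 61.0 times untreated Cal27 (57.0 to 65.3), and its TWIST1 level of 15.0 CPM was the highest of the 10 libraries, 2.82 times Cal27 (2.26 to 3.54). CDH1 was at 552 CPM, 1.88 times Cal27 (1.82 to 1.94). CDH2 had 2 counts against 296 in Cal27, a ratio of 134-fold lower (36.7 to 1108). SNAI2 was 3.87-fold lower at 15.9 CPM (3.41 to 4.40), and VIM had 14 counts. LOX was 2.32 times Cal27 (2.02 to 2.66) and SPARC 0.884 times (0.855 to 0.914).

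BICR78, the line with 9 NSD1 counts, lay close to Cal27 for several genes. SNAI2 was at 62.8 against 61.3 CPM, TWIST1 at 5.30 against 5.33 CPM, and SPARC at 402 against 362 CPM. LOX stood out at 52.9 CPM, 3.53 times Cal27 (3.10 to 4.01), and VIM was 2.15 times Cal27 (1.35 to 3.48) at 57 counts. ZEB2 was 2.26 times Cal27 (1.18 to 4.50), FN1 0.809 times (0.729 to 0.898), CDH1 1.19 times (1.15 to 1.23) and CDH2 0.646 times (0.533 to 0.781). The untreated labelled knockout, by contrast, was 6.79 times Cal27 for FN1 (6.33 to 7.31), 5.72 times for ZEB2 (3.29 to 10.6), 4.06 times for CDH2 (3.57 to 4.62), 2.11 times for CDH1 (2.05 to 2.18) and 2.02 times for SPARC (1.97 to 2.08). For LOX it was 1.69 times Cal27 (1.47 to 1.95), for SNAI2 0.601 times (0.550 to 0.657), for TWIST1 0.417 times (0.292 to 0.589) and for VIM 0.4934 times (0.246 to 0.951). Between these 2 libraries the summed markers of other cell types also differed: the endothelial sum was 5.52 CPM in untreated Cal27 and 86.5 CPM in the untreated labelled knockout, of which CDH5 made up 2.86 and 86.1 CPM. The immune sum was 58.9 and 130 CPM and the fibroblast sum 26.7 and 27.01 CPM, and the part of these shifts in the ratios was not tested.

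**Figure D5:**
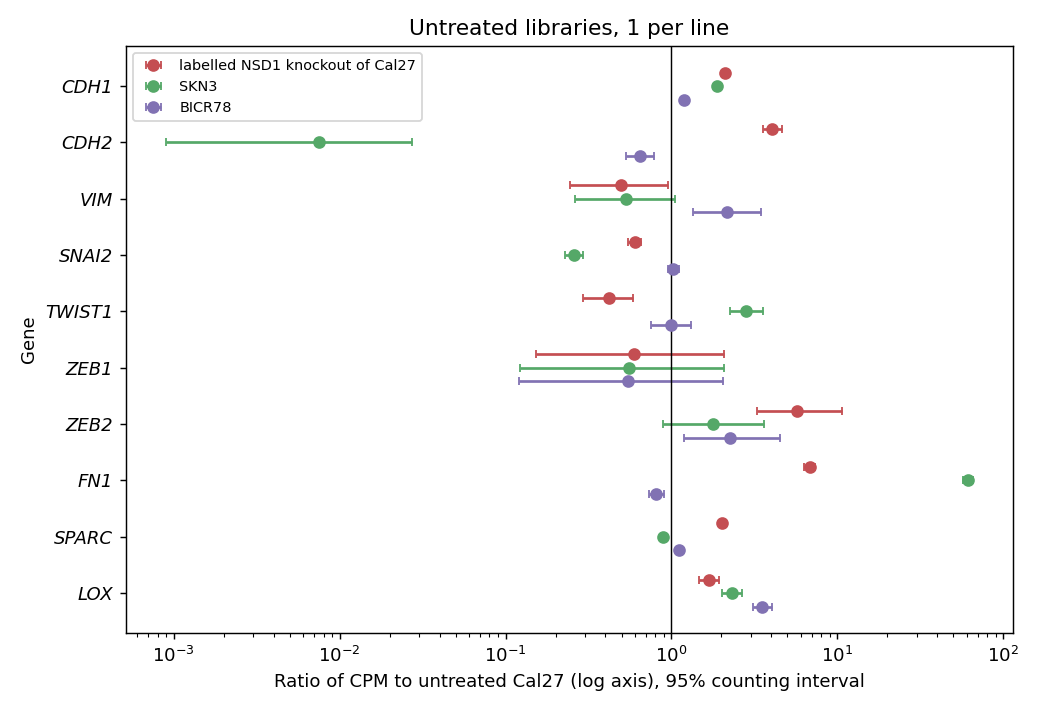
Ratio of each gene's CPM to untreated Cal27 on a log axis, with exact 95% counting intervals, for 1 untreated library each of the labelled knockout, SKN3 and BICR78. FN1 in SKN3 is at 61.0 and CDH2 in SKN3 is 134-fold below Cal27; ZEB1 intervals span 1 in every line.

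Ordered over all 10 libraries, CDH1 was lowest in the 2 EPZ-6438 libraries (239 and 240 CPM), followed by untreated Cal27 (293 CPM), a tight middle of the 4 DMSO libraries and BICR78 (327 to 348 CPM), then SKN3 (552 CPM) and the untreated labelled knockout (619 CPM). The 4 DMSO libraries did not separate by genotype. The genes whose log2 CPM followed CDH1 most closely over the 10 libraries were PTPRF, with a Pearson r of 0.918, NUAK2 (0.904) and PDLIM4 (0.897). Those nearest to VIM were CEP55 (0.956), RPS14 (0.949) and PHB2 (0.937). These coefficients describe 10 libraries that share lines, sets and depth, and carry no test. The range of CEP55, from 106 to 175 CPM, was much narrower than that of VIM, from 0.597 to 3.36 CPM.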

How the data were processed

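RNA from 10 libraries was analysed; the 7 CUT&Tag samples were not analysed here. TRIzol extraction and ribosomal RNA depletion are recorded per the labels' protocols. The build hg38 and the tools featureCounts 1.6.1, HISAT2 2.1.0, Picard 2.23.1 and CASAVA 1.7 are named per the submitters' processing notes; the sources used here do not give annotation or strand settings. The deposited values are the authors' raw counts per gene symbol and were used unchanged. Samples were grouped by title. The 6 DMSO and EPZ-6438 libraries entered 1 fit in edgeR 4.0.16 under R 4.3.3 after its default low-count filter (13241 genes), with TMM scaling, group as the only term and the quasi-likelihood F test. Calls were made where the Benjamini-Hochberg adjusted p over all tested genes was below 0.05, and "rose" and "fell" refer to such calls. SDs behind group means come from 2 libraries; text values are per library. Comparisons of single libraries have no p-value; their intervals are exact 95% intervals for counting error. Each library counted once. Replicate pairs differed beyond counting noise (chi-square per degree of freedom 1.76 to 2.16), which does not show that they came from separate cultures. The common biological coefficient of variation of the fit, its spread between replicates beyond counting noise, was 2.60%. The script was tested on simulated data.

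The 10 genes and the lists were chosen with earlier results of these data known. Named are all 10 genes, NSD1, overlapping genes and up to 4 genes per list with the lowest adjusted p in the first 2 comparisons. Also named are the 3 genes most like CDH1 and VIM, among genes with a mean of at least 5 CPM in some group. Such a group can be 1 library. TWIST2, COL1A1 and COL1A2 were named after their values were seen. Lists share genes, so their counts are not independent: 6 of the 18 partial transition genes and 3 of the 7 fibronectin-binding integrin genes are also in other lists. FOXC2, MIR200CHG and TGFB1 were not analysed here. Positions are from RefSeq GRCh38.p14 by symbol. Alternatives were DESeq2 1.42.0, other scalings and filters, a robust spread, glmTreat at a log2 fold of 0.5, leaving out each library, a replicate block and fits of 2 groups; adding the untreated pair was chosen after seeing the data.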

Additional observations from a re-analysis of the deposited data

How the results depend on the processing

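The 27 gene changes (9 genes, 3 comparisons) were recomputed 414 times in all: 372 values kept their direction and side of the threshold, 36 lost a call, 1 gained one (LOX in the labelled knockout, library size alone) and 5 turned direction, none of them called in either analysis. These 5 came with 1 library left out: CDH1 in the labelled knockout was at -0.013 without replicate 1 of Cal27 with DMSO and -0.0052 without replicate 2 of the labelled knockout with DMSO, ZEB2 with EPZ-6438 at 0.12 without the latter library and 0.23 without inhibitor replicate 1, and ZEB2 with EPZ-6438 against Cal27 at -0.040 without inhibitor replicate 2. Over all left-out libraries these changes ran from -0.013 to 0.040, from -0.44 to 0.23 and from -0.040 to 0.63. Over all 16 alternatives for the labelled knockout with DMSO, CDH1 reached 0.37 and ZEB2 1.06, with neither called. FN1 was called in every alternative of all 3 comparisons, and TWIST1 and LOX in every alternative of both comparisons with EPZ-6438. In the labelled knockout with DMSO, the count of genes called lower (2) was 0 with DESeq2, library size alone, the replicate block and the test against a log2 fold of 0.5, 1 with DESeq2-type size factors, with only the 2 groups compared and with the untreated pair added, and 0 to 1 when 1 library was left out; VIM and TWIST1 are the genes concerned. Against a log2 fold of 0.5 only 1 gene (FN1) was called higher there, and 1 rather than 5 lower in each comparison with EPZ-6438. Over all genes that test called 248 higher and 618 lower in the labelled knockout, 1272 and 204 with EPZ-6438, and 1053 and 424 against Cal27; by its construction it asks for larger changes. Adding the untreated pair gave 1318 genes higher and 1595 lower; the cause was not tested. No pairing by replicate number was seen: deviations of same-numbered libraries correlated at 0.014, -0.044 and 0.0035. These values run over all tested genes, where counting noise can hide a small shared effect, so pairing is not excluded. In the replicate block fit 3 genes were called higher in the labelled knockout, and 3 higher and 5 lower in each comparison with EPZ-6438, as without the block. Of 90 recomputed single-library ratios, 85 stayed within their counting interval and 5 moved beyond it, all with library size alone (such as CDH1 in the labelled knockout, log2 1.18). Depth limits ZEB1, VIM, ZEB2 and TWIST1, which had 5 to 118 counts per library in the treated set. Levels per transcript length and protein comparisons were not run, since neither lengths nor proteins were used here.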
